A study of Mus musculus with 4 samples.

Results

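The 10 genes described here form a short stretch of the bone morphogenetic protein (BMP) pathway: the secreted ligands Bmp2, Bmp4 and Bmp7, the secreted antagonist Nog, and 6 target genes, the homeobox genes Msx1 and Msx2 and the Id genes Id1, Id2, Id3 and Id4. They were taken as every non-control probe that the array files name for them, which gave 15 probes in 60 spots, out of 41174 probes in 43379 non-control spots for 27663 genes or transcripts. Total RNA was labelled with Cy3 and measured on 1-colour Agilent mouse arrays. The samples were 3 neural progenitor cell (NPC) lines and 1 pool of tissue RNA. Every line came from its own embryonic stem cell line and was hybridised 1 time. NS21 carries the strain label 129/Ola and is NPC replicate 1, NS195R carries 129/Sv and is replicate 2, and NSEB5-2C carries 129/Ola and is replicate 3. Mixture, from Swiss Webster mice, combined equal amounts of RNA of liver, lung, spleen, thymus, kidney, heart and day 11 embryo on 1 array. No line shares the strain of Mixture, so in a ratio to Mixture the strain cannot be told apart from the cell type. With 1 array for each line, the spread between NPC arrays holds line differences and technical error together.

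BMP ligands bind paired serine/threonine kinase receptors, whose signal passes through Smad1, Smad5 and Smad9 with Smad4 to the nucleus. Id and Msx genes are among the best known direct targets, and Nog binds BMP ligands outside the cell and blocks them. Id proteins pair with basic helix-loop-helix factors but lack the region that binds DNA, and Msx proteins are homeodomain factors known from the dorsal neural tube, the neural crest and limb and craniofacial tissue. In the early ectoderm BMP signalling opposes the neural fate.

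Of the spots, 24523 were well above background in NS21, 25690 in NS195R, 23983 in NSEB5-2C and 26840 in Mixture, and saturated spots numbered 0. The source label of Mixture conflicts with its other labels, since it names an NPC culture under doxycycline. All listed markers of liver (3), heart (3), kidney (2), lung (2) and lymphoid cells (3) were well above background on that array, and the liver markers Alb, Apoa1 and Ttr were not so in any NPC line, nor were the kidney and lymphoid markers. Of the rest, Tnnt2 was well above background in NS21 (411.5) and NSEB5-2C (1594), and Myh6 (21.1) and Sftpc (10.5) in NS195R, against 29413, 33179 and 62373 in Mixture. Of 10 neural progenitor markers, 8 were well above background in NS21, 10 in NS195R, 8 in NSEB5-2C and 8 in Mixture. Sox2 was not well above background in NS21, Sox3 was not in NSEB5-2C, and Fabp7 was in neither. Of the markers well above background in both these lines, Nes, Vim, Pax6 and Prom1 were higher than in Mixture in both. Prom1 was nearly equal in NSEB5-2C (124.0) and Mixture (116.7), and Pax6 was not well above background in Mixture. Sox1 was higher than in Mixture in NSEB5-2C only, Notch1 in NS21 only, and Msi1 in neither. The NPC label is that of the sample records and was not tested. In bulk RNA, fewer cells of a type and less RNA per cell cannot be told apart.

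All values below are scaled signals: the scanner's background-subtracted intensity after each array's 75th percentile was set to 245. A probe was called well above background where the scanner's flag held for at least 1 of every 2 of its spots, and the lowest such signal lay between 6.72 and 7.68 on the 4 arrays. A signal under that has no level of its own, and a ratio to it is then given as "at least" that many fold. Levels are compared between arrays for 1 probe and never between genes. All 10 genes were tested, and 6 of them were well above background on all 4 arrays.

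The members differed widely between the NPC lines, and limma called 0 of the 10 in the lines against Mixture, where it called 9.85% of the 19825 genes tested. NS21 was at least 2-fold above both other lines for 7 of 10 members (Bmp2, Bmp4, Bmp7, Nog, Msx1, Msx2 and Id1), against 8.12% of all genes. NS195R was at least 2-fold below both other lines for 4 of 10 (Bmp2, Bmp4, Msx1 and Msx2), against 6.42%. NSEB5-2C was at least 2-fold below both for 3 of 10 (Bmp7, Id2 and Id3), against 7.42%. In the remaining directions, 0 of 10 members lay that far above both others in NS195R (11.9% of all genes) or in NSEB5-2C (6.55%), and 0 lay that far below both in NS21 (4.81%). These are sizes without a test. With limma, members called between 1 line and the other lines numbered 0 for each line, as did all genes (0%). At an unadjusted p under 0.05 the members called were 0 for NS21 (5.71% of all genes), 2 for NS195R (10.5%), Msx1 and Msx2, and 2 for NSEB5-2C (5.83%), Bmp7 and Id2, of which Msx2 and Bmp7 rest on a signal below background in that line.

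**Figure D1:**
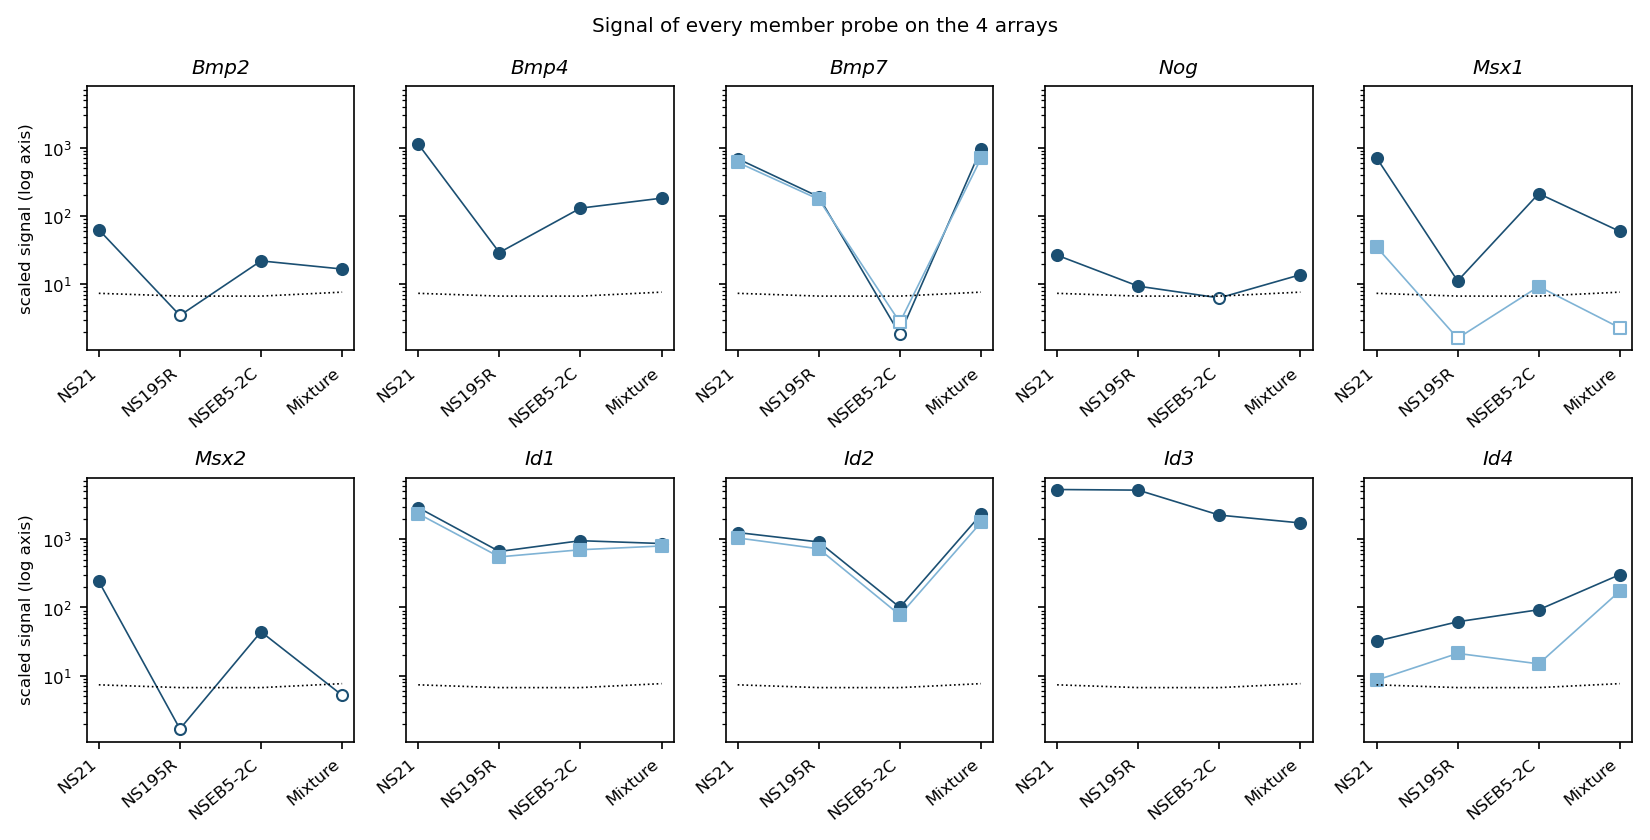
Scaled signal (log axis) of each member probe in NS21, NS195R, NSEB5-2C and Mixture. Dark circles are the probe used for the gene, light squares the second probe, open symbols a signal not well above background, and the dotted line the lowest signal well above background on each array. Bmp2, Bmp4, Msx1 and Msx2 share a dip at NS195R, and Bmp7 and Id2 a dip at NSEB5-2C.

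Bmp4 was the ligand gene measured above background on all 4 arrays. Its scaled signal was 1127 in NS21, 29.2 in NS195R, 130.2 in NSEB5-2C and 182.2 in Mixture. NS21 was thus the array with the highest Bmp4 signal and NS195R the one with the lowest, 38.6-fold apart, and NS21 lay 8.65-fold above NSEB5-2C. The probe was printed 10 times on each array, and its repeated spots ran between 1045 and 1199 in NS21, 25.5 and 35.7 in NS195R, 119 and 155 in NSEB5-2C, and 163 and 193 in Mixture, so that the 4 arrays did not overlap in any spot. Against Mixture, Bmp4 was 6.18-fold higher in NS21 and 6.24-fold lower in NS195R. Averaged over the lines, the log2 ratio to Mixture was -0.17 (SE 2.39, limma adjusted p = 0.969), and its sign turned with normexp and with median scaling. The files place the probe at chr14:41704207-41704266. The sources used here name no genome build for probe positions, so no exon or UTR is named for any probe.

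Bmp2, a close relative of Bmp4, followed the same order of lines. It gave 62.9 in NS21, 3.50 in NS195R, 22.02 in NSEB5-2C and 16.7 in Mixture. In NS195R 0 of 10 repeated spots were well above background, while all 10 were on each other array. NS21 was at least 9.36-fold above NS195R and 2.86-fold above NSEB5-2C, and it was 3.76-fold above Mixture. The log2 ratio of the NPC lines to Mixture, with the NS195R signal raised to the detection limit (a step chosen after seeing the data), was 0.33 (limma adjusted p = 0.904). The Bmp2 probe lies at chr2:133302098-133302157 in the files.

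Bmp7, a ligand of another BMP subgroup, had a different low line. The probe used for it gave 689.7 in NS21, 190.9 in NS195R, 1.85 in NSEB5-2C and 955.6 in Mixture. NSEB5-2C was the only array on which it was not well above background, at least 102.7-fold below NS21, 28.4-fold or more below NS195R and at least 142.3-fold below Mixture. A second probe, printed 10 times, gave 609.7 in NS21, 175.4 in NS195R, 2.78 in NSEB5-2C and 697.5 in Mixture, with 1 of 10 spots well above background in NSEB5-2C. Both probes therefore placed the arrays in 1 order, with Mixture above NS21. Since the NSEB5-2C signal has no level, fitted values are given with it raised to the detection limit. NSEB5-2C minus the other lines was then -5.76 on the log2 scale (limma adjusted p = 0.830), and -2.74 with normexp background correction. The log2 ratio of the NPC lines to Mixture was then -3.32 (limma adjusted p = 0.537), against -2.11 with normexp and -1.40 without NSEB5-2C.

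**Figure D2:**
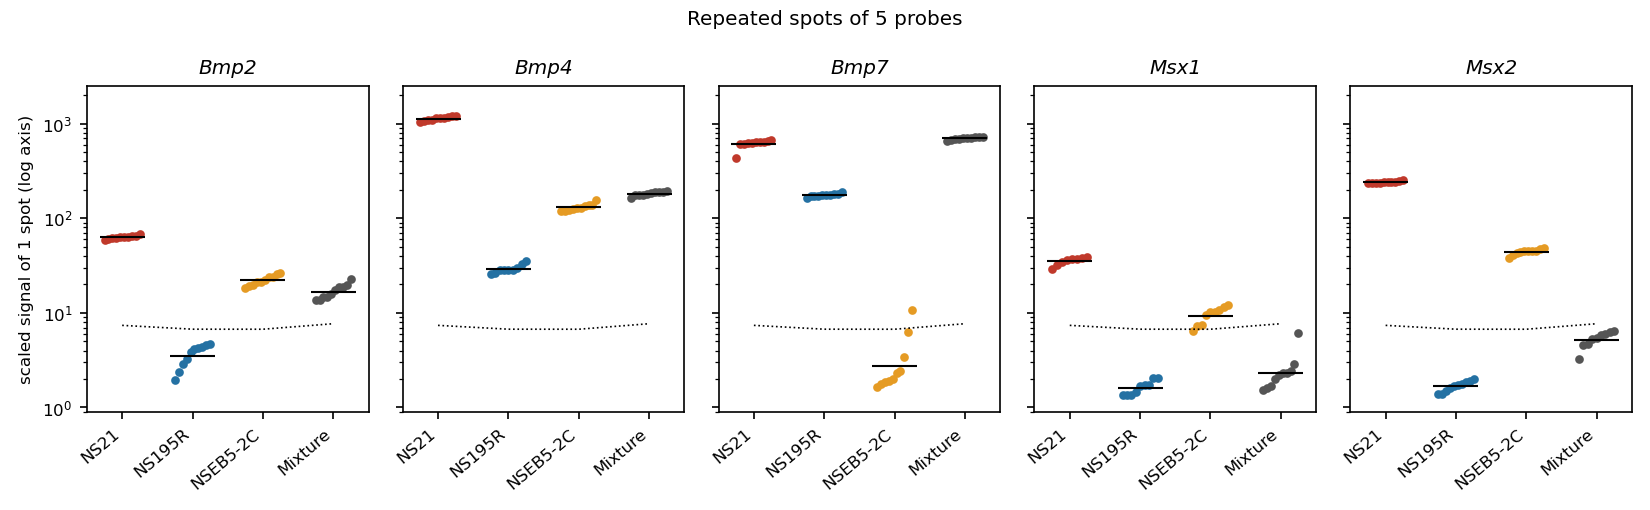
Scaled signal (log axis) of the repeated spots of 1 probe each for Bmp2, Bmp4, Bmp7, Msx1 and Msx2, by array. Each point is 1 spot, placed in rising order, flagged spots are left out, the black bar is the mean on the log scale and the dotted line the lowest signal well above background. The Bmp4 spots do not overlap between any arrays, and the Msx2 spots of NS21, between 234 and 252, lie above those of all other arrays.

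Nog, the BMP antagonist, stayed close to the detection limit. It had 26.6 in NS21, 9.40 in NS195R, 6.32 in NSEB5-2C and 13.8 in Mixture, from 1 spot on each array. NSEB5-2C was not well above background. NS21 was 2.84-fold above NS195R, at least 3.97-fold above NSEB5-2C and 1.93-fold above Mixture. The log2 ratio of the NPC lines to Mixture was -0.22 with the NSEB5-2C signal raised to the detection limit (limma adjusted p = 0.904). Without that step it was -0.25, and its sign turned with normexp, median scaling and quantile normalization.

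The Msx genes had the order of lines seen for Bmp2 and Bmp4. Msx1 gave 710.6 in NS21, 11.2 in NS195R, 212.5 in NSEB5-2C and 59.5 in Mixture. NS21 and NSEB5-2C lay 11.9-fold and 3.57-fold above Mixture, whereas NS195R lay 5.31-fold below it. NS21 was 63.4-fold above NS195R and 3.34-fold above NSEB5-2C. For NS195R against the other lines, the log2 difference was -5.12 (SE 1.05), with an unadjusted p of 0.0272 and a limma adjusted p of 0.372. Against Mixture the log2 ratio of the NPC lines was 1.001 (SE 2.77, limma adjusted p = 0.830). The second Msx1 probe, printed 10 times next to the first, gave 35.2 in NS21, 1.62 in NS195R, 9.28 in NSEB5-2C and 2.31 in Mixture. It kept the order of the lines, and it was not well above background in NS195R or Mixture. The files place the 2 probes at chr5:36902462-36902521 and chr5:36902399-36902456.

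Msx2 was above background in NS21 and NSEB5-2C only. It gave 240.8 in NS21, 1.67 in NS195R, 44.1 in NSEB5-2C and 5.20 in Mixture. All 10 spots were well above background in NS21 and in NSEB5-2C, and 0 were in NS195R or Mixture. NS21 was at least 35.8-fold above NS195R, 5.46-fold above NSEB5-2C and at least 31.3-fold above Mixture, and NSEB5-2C was at least 5.74-fold above Mixture. NS195R and Mixture were both below background, so no ratio is given between them. With signals below background raised to the detection limit, NS195R minus the other lines was -3.94 on the log2 scale (limma adjusted p = 0.472), and it was -1.64 with normexp. The NPC lines did not pass limma against Mixture (adjusted p = 0.679), and no ratio is given for them as a group. The Msx2 probe lies at chr13:52503611-52503670.

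Bmp4, Msx1 and Msx2 followed 1 order of lines, and Id2 followed another, so their promoter windows are shown to let both kinds be read side by side. RefSeq windows of 250 bases before and 50 after the start, on build GRCm38.p6, were at hand for 6 of 10 members. Capitals mark a Smad box (GTCT, or AGAC where it lies on the opposite strand) and the GC element GGCGCC known from BMP response elements. Each is read 5′ to 3′ on the gene's strand, which is the minus strand for all 4, at chr14:46390620-46390919 for Bmp4, chr5:37824536-37824835 for Msx1, chr13:53472731-53473030 for Msx2 and chr12:25096043-25096342 for Id2.
Bmp4: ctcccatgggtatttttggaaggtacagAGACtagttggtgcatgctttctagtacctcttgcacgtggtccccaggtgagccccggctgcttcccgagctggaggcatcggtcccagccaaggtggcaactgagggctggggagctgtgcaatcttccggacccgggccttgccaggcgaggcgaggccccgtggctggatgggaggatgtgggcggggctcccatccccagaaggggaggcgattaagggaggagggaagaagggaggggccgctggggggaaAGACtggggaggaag
Msx1: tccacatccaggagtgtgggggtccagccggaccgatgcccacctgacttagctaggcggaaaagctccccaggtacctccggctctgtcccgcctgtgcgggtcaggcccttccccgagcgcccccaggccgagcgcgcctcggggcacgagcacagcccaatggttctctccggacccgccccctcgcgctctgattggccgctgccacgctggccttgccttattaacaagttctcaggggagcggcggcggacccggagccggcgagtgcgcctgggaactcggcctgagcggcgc
Msx2: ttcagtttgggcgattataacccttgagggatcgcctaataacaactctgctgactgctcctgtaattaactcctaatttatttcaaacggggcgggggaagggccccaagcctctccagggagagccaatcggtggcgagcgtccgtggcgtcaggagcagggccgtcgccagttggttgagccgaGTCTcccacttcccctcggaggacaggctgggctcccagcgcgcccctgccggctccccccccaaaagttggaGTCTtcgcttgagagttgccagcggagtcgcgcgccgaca
Id2: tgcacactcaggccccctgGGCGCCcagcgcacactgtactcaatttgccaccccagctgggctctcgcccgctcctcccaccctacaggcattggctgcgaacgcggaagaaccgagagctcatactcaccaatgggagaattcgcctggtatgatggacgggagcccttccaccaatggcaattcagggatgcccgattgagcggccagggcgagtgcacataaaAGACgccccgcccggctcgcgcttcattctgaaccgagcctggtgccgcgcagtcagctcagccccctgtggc
The Smad box matched 2 times in Bmp4, 2 in Msx2, 1 in Id2, 3 in Id3, and 0 in Msx1 and Id4, and 88% of all 32851 windows hold it on either strand. GGCGCC, which reads the same on both strands, was present 1 time in Id2 and 1 time in Id4 and in 11.9% of all windows. A GGCGCC and a GTCT on 1 strand with 5 bases between was found in 0 of the 6 windows and in 0.0731% of all windows. Of the E boxes, CACCTG occurred in Bmp4 and Msx1 (20.2% of all windows) and CAGCTG in Id2 (16.3%), and the homeobox core TAATTG occurred in 0 of the 6 (8%), each searched on both strands. These are letter matches in 1 window of each gene, and other regulatory sequence was not searched.

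The Id genes encode inhibitors of basic helix-loop-helix factors, and they split. Id1 resembled Bmp4 in its order, with 2896 in NS21, 660.6 in NS195R, 950.0 in NSEB5-2C and 863.5 in Mixture. Its values in NS195R, NSEB5-2C and Mixture lay within 1.44-fold of each other, and NS21 stood 4.38-fold above NS195R, 3.05-fold above NSEB5-2C and 3.35-fold above Mixture. A second Id1 probe that overlaps the first gave 2358 in NS21, 550.4 in NS195R, 700.3 in NSEB5-2C and 795.2 in Mixture. The log2 ratio of the NPC lines to Mixture was 0.50 (SE 1.05, limma adjusted p = 0.773).

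Id2 followed Bmp7 in having its low point in NSEB5-2C. It gave 1251 in NS21, 910.8 in NS195R, 100.4 in NSEB5-2C and 2301 in Mixture. NSEB5-2C was 12.5-fold below NS21, 9.07-fold below NS195R and 22.9-fold below Mixture, while NS21 and NS195R differed 1.37-fold. A second probe gave 1043 in NS21, 722.6 in NS195R, 77.4 in NSEB5-2C and 1758 in Mixture, the same order of arrays. For NSEB5-2C against the other lines the log2 difference was -3.41 (SE 0.50), with an unadjusted p of 0.0130 and a limma adjusted p of 0.770. All 3 lines lay below Mixture. The log2 ratio of the NPC lines to it was -2.24, SE 1.80, and the limma adjusted p was 0.469.

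Id3 was above Mixture in all 3 lines. Its signal was 5331 in NS21, 5223 in NS195R, 2251 in NSEB5-2C and 1727 in Mixture. NS21 and NS195R differed 1.02-fold, a log2 difference smaller than the median SD of repeated spots on any array, which ran between 0.0587 and 0.0729. Ratios to Mixture were 3.09-fold, 3.02-fold and 1.30-fold, and the mean log2 ratio was 1.20, SE 0.72, at a limma adjusted p of 0.346.

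Id4 ran the other way and was the member nearest to the test's threshold. It gave 32.1 in NS21, 61.8 in NS195R, 92.7 in NSEB5-2C and 302.8 in Mixture. NS21 was 9.42-fold, NS195R 4.90-fold and NSEB5-2C 3.27-fold below Mixture, and Bmp7 and Id2 also lay below Mixture in every line. For Id4, NS21 was the lowest line in place of the highest. The log2 ratio was -2.41 (SE 0.77), with an unadjusted p of 0.0446 and a limma adjusted p of 0.152. The second Id4 probe gave 8.64 in NS21, 21.3 in NS195R, 14.96 in NSEB5-2C and 173.9 in Mixture. It kept Mixture highest and NS21 lowest and swapped the other lines.

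**Figure D3:**
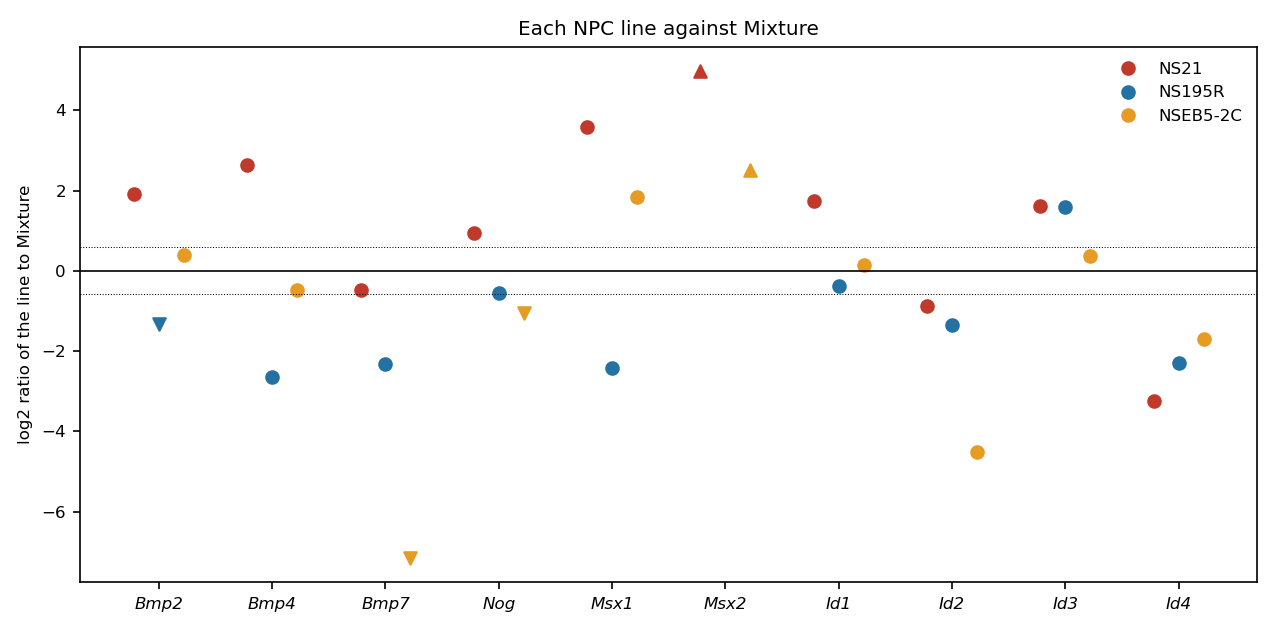
Log2 ratio of NS21, NS195R and NSEB5-2C to Mixture for each member, 1 point per array. Circles are measured on both arrays, downward triangles are upper bounds (the line not well above background), upward triangles lower bounds (Mixture not well above background), and dotted lines mark 1.5-fold. NS195R has no point for Msx2. Bmp2, Bmp4, Nog and Msx1 have lines beyond 1.5-fold on both sides of 0, and Bmp7, Id2 and Id4 have all lines below 0.

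Over the members, NS21 was the highest line by any margin for 9 of 10, all but Id4, against 37.7% of all genes. For Id3 its margin over NS195R was 1.02-fold. The full order of NS21, then NSEB5-2C, then NS195R held for 5 of 10 (Bmp2, Bmp4, Msx1, Msx2 and Id1), against 20.1%. The highest and lowest line lay at least 4-fold apart for 7 of 10, against 20.4%, with signals below background raised to the detection limit. With the same limit, the median log2 range between lines was 3.43 for the members and 0.85 for all genes. Bmp2, Bmp4, Nog and Msx1, 4 of 10, had 1 line above Mixture by 1.5-fold or more and another under Mixture by as much, against 8.26%.

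For the NPC lines against Mixture, limma called 0 of 10 members (9.85% of all genes), with 0 higher (0.938%) and 0 lower (8.91%). Unadjusted p-values under 0.05 belonged to 0 higher members (15.6% of all genes) and to 1 lower member, Id4 (15.4%). The median log2 ratio was -0.07 over the members and 0.44 over all genes, or 0.082 and 0.31 with signals below background raised to the detection limit. The series also used a rule of size, which asks that NSEB5-2C exceed Mixture by 1.5-fold or more and that NS21 or NS195R do so too. By that rule 2 of 10 members passed, Msx1 and Msx2, against 36.1% of all genes, and the count was 0 when all 3 lines had to pass.

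The genes whose centred log2 values over the 4 arrays came nearest to Msx1, among 12730 genes measured on every array, were Acot9 (root mean square difference 0.39), Acot10 (0.45) and Fn1 (0.47). Acot9 and Acot10 encode acyl-CoA thioesterases and are close relatives, so their separate signals are uncertain. Fn1 encodes fibronectin, a protein of the extracellular matrix, and gave 12202 in NS21, 452.9 in NS195R, 5186 in NSEB5-2C and 1148 in Mixture. With 4 arrays this likeness is a description.

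The rest of the pathway was described over 57 listed genes, of which 53 were tested. Against Mixture limma called 0 of them higher (0.938% of all genes) and 3 of 53 lower (8.91%), among them Gdf2 and Acvrl1, and the 3 became 0 without any 1 of the NPC lines. An unadjusted p under 0.05 was reached by 6 of 53 with a higher signal (15.6% of all genes) and 5 of 53 with a lower one (15.4%). NS21 was at least 2-fold above both other lines for 10 of 53 (8.12% of all genes), NS195R for 6 (11.9%) and NSEB5-2C for 7 (6.55%). NS21 was that far below both others for 3 of 53 (4.81%), NS195R for 9 (6.42%) and NSEB5-2C for 2 (7.42%). The median log2 range between lines, without any floor, was 1.72 for these genes, 3.90 for the members and 1.06 for all genes.

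The inhibitory Smads, feedback inhibitors that BMP signalling is known to induce, were lowest in NS195R. Smad6 gave 422.6 in NS21, 3.66 in NS195R, 58.4 in NSEB5-2C and 347.9 in Mixture, so NS21 was at least 62.9-fold above NS195R. Smad7 gave 166.1 in NS21, 5.96 in NS195R, 87.9 in NSEB5-2C and 104.7 in Mixture, with NS21 at least 24.7-fold above NS195R. Neither was well above background in NS195R, and both placed the lines as Bmp4, Msx1 and Msx2 did. The pseudoreceptor gene Bambi gave 2125 in NS21, 425.8 in NS195R, 832.5 in NSEB5-2C and 428.5 in Mixture, again in that order of lines. Skil, a Smad corepressor gene, was also lowest in NS195R, with 486.0 in NS21, 180.7 in NS195R, 596.0 in NSEB5-2C and 182.2 in Mixture. Limma called 0 of the 7 genes of this role.

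Among other targets, Gata2, a transcription factor gene, gave 418.6 in NS21, 1.89 in NS195R, 67.7 in NSEB5-2C and 473.9 in Mixture. NS195R was not well above background, at least 62.3-fold below NS21. Gata3 gave 267.2 in NS21, 7.30 in NS195R, 268.7 in NSEB5-2C and 527.5 in Mixture, and was not well above background in NS195R either. Runx2, the osteoblast factor gene, was highest in NSEB5-2C, with 76.3 in NS21, 17.6 in NS195R, 299.4 in NSEB5-2C and 56.3 in Mixture. Prdm1, a repressor gene, ran against these, at 1.90 in NS21, 63.1 in NS195R, 4.47 in NSEB5-2C and 57.7 in Mixture, with only NS195R of the lines well above background. Hey1 and Hes1 also had NS195R as the highest line, and Tbx3 had it as the lowest. Atoh8 was lowest in NSEB5-2C, and Msx3 was well above background in NSEB5-2C alone. These further targets were named after their values were seen. NS195R was at least 2-fold below both other lines for 3 of 9 tested targets (6.42% of all genes). It was that far above both for 2 of 9 (11.9%). Limma called 0 of the 9 tested.

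Among the named ligands and antagonists, Bmp8b, Bmp6, Bmp3 and Grem1 were highest in NSEB5-2C, Bmp8a, Fst and Chrdl1 in NS21, and Bmper in NS195R. Bmp8a gave 109.7 in NS21, 4.75 (not well above background) in NS195R, 10.4 in NSEB5-2C and 15.7 in Mixture. Bmp8b was well above background in NSEB5-2C alone, at 345.1 and at least 51.3-fold above NS195R. Bmp6 and Bmp3 were well above background in NSEB5-2C, at 47.2 and 29.6, and in Mixture, at 389.7 and 49.8, and not in NS21 or NS195R. The antagonist gene Grem1 gave 808.9 in NSEB5-2C and 10.97 in Mixture. It was not well above background in NS21 (4.81) or NS195R (1.59). Bmper, which encodes a secreted BMP-binding protein, had 30.6 in NS21, 780.3 in NS195R, 165.2 in NSEB5-2C and 167.3 in Mixture. Fst, whose product binds activins and some BMPs, had the order of Bmp4, with 390.0 in NS21, 25.3 in NS195R, 82.5 in NSEB5-2C and 108.5 in Mixture. Chrdl1, a chordin-like antagonist gene, was well above background in NS21 (78.8) and NS195R (73.9) and not in NSEB5-2C or Mixture. The ligand gene Gdf2 had no line with a signal well above background. Averaged over the NPC lines, with their signals raised to the detection limit, it was at least 10.7-fold under Mixture. The limma adjusted p of 0.0105 was fitted without raising these signals. The spread between lines behind it is therefore one of signals below background, not of levels.

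The median log2 range between lines was 1.06 for the receptors and 1.34 for the Smads. Bmpr1a, a type I receptor gene, gave 753.8 in NS21, 678.3 in NS195R, 577.4 in NSEB5-2C and 246.7 in Mixture. Bmpr2, the type II receptor gene, gave 1831 in NS21, 2392 in NS195R, 1422 in NSEB5-2C and 1621 in Mixture. These 2 were added after their values were seen, as the main BMP receptors. Bmpr1b was well above background only in NS195R, at 28.3. The activin receptor gene Acvr2b was highest in NS21, with 315.4 in NS21, 107.2 in NS195R, 55.4 in NSEB5-2C and 101.0 in Mixture. Acvr2a gave 66.7 in NS21, 31.9 in NS195R, 53.4 in NSEB5-2C and 14.8 in Mixture, and Acvr1, a type I receptor gene, gave 352.2, 399.2 and 724.2 in the same lines, and 102.3 in Mixture. Acvrl1, a receptor gene known from endothelium, was not well above background in any line. Averaged over the lines, with their signals raised to the detection limit, it was at least 31.8-fold lower than in Mixture. Its limma adjusted p of 0.0435 was likewise fitted to line signals below background, without raising them. Of the endothelial markers limma called 5 of 6 lower in the NPC lines, against 8.91% of all genes. NS21 and NSEB5-2C had 0 of 6 well above background, NS195R 2 of 6 and Mixture 6 of 6. Markers of other tissues were called lower as well: liver 3 of 3, lymphoid 3 of 3, kidney 2 of 2, lung 2 of 2 and heart 2 of 3. These calls too were fitted mostly to line signals below background. The part of any of these cell types in the Acvrl1 value was not tested.

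Smad1, Smad4 and Smad5, which carry the signal, were well above background on every array. Smad1 gave 520.0 in NS21, 1255 in NS195R, 2027 in NSEB5-2C and 1202 in Mixture, so that NS21 was the lowest line. Smad4 gave 4420 in NS21, 2696 in NS195R, 4023 in NSEB5-2C and 1671 in Mixture. Smad5 gave 3409 in NS21, 5310 in NS195R, 3876 in NSEB5-2C and 1168 in Mixture. Smad9 was well above background in NS21 only, at 8.54. Of the factors that Id proteins bind, Tcf4 gave 1561 in NS21, 8106 in NS195R, 2941 in NSEB5-2C and 1433 in Mixture, and Tcf12 gave 1424, 4954 and 1633 in the same lines, and 701.0 in Mixture. Both were highest in NS195R. Among the lines Id1 was lowest in NS195R, Id2 and Id3 in NSEB5-2C, and Id4 in NS21. Tcf3 was more even, at 2778 in NS21, 2470 in NS195R, 3038 in NSEB5-2C and 867.8 in Mixture.

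**Figure D4:**
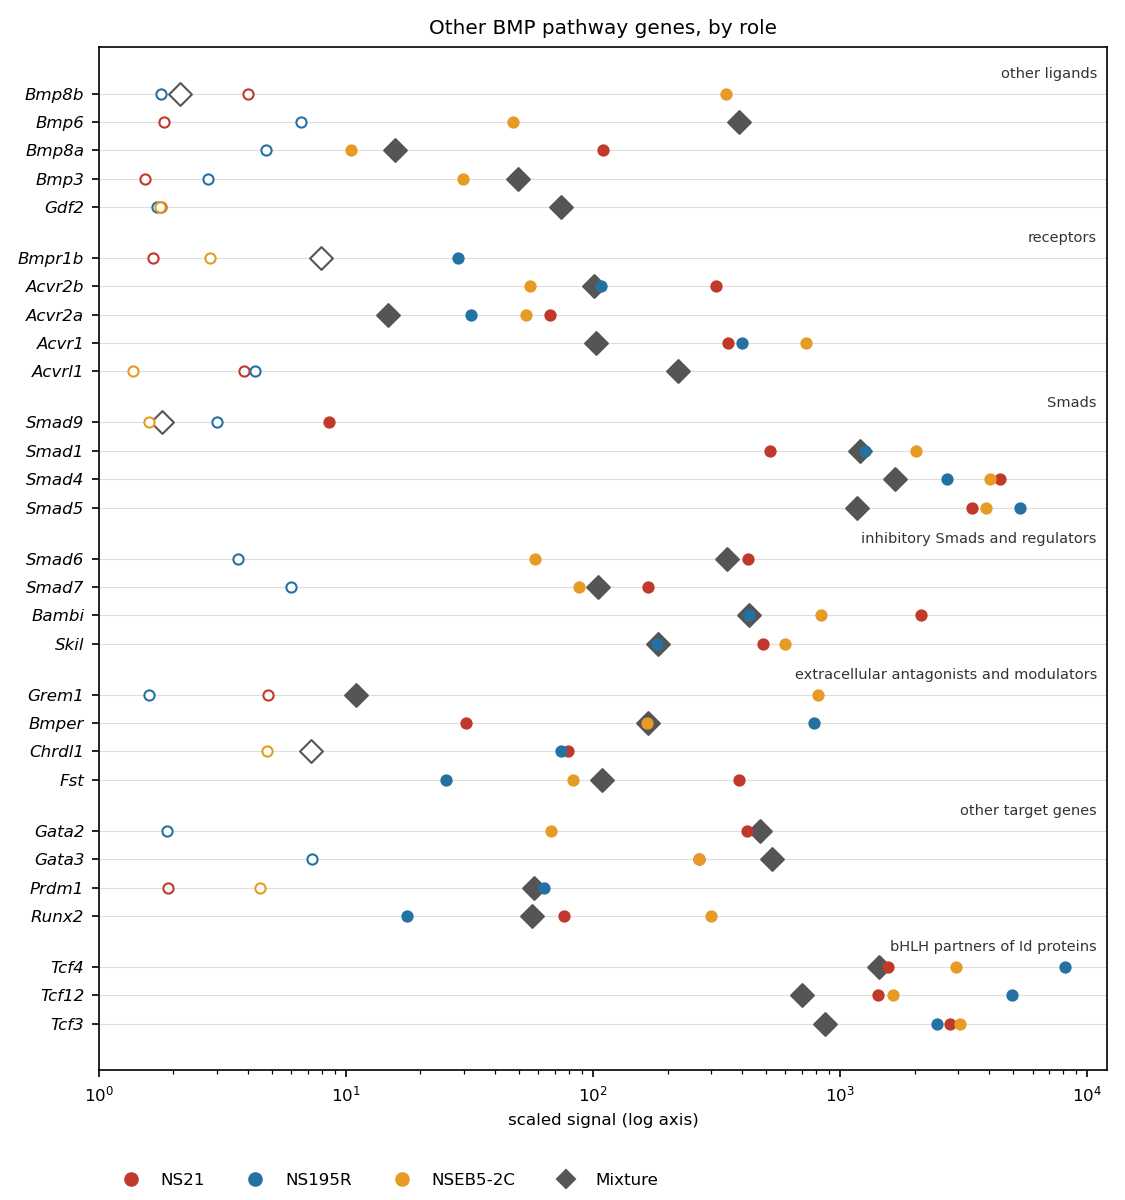
Scaled signal (log axis) of named pathway genes outside the 10 members, grouped by role. Circles are NS21, NS195R and NSEB5-2C, diamonds are Mixture, and open symbols are not well above background. Smad6, Smad7 and Gata2 have open NS195R points far left of NS21, and Gdf2 and Acvrl1 have all lines open. The Gata3 point of NS21 lies under that of NSEB5-2C.

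Markers of other cell types differed between the same lines. The neural progenitor markers summed to 34128 in NS21, 70067 in NS195R, 34756 in NSEB5-2C and 9885 in Mixture. A sum over a marker list follows its strongest signals and does not measure the share of a cell type. Here Vim alone gave 29007 in NS21 and 31091 in NSEB5-2C, and Fabp7 alone 35845 in NS195R. Sox2 gave 7.09 (not well above background) in NS21, 1574 in NS195R, 446.6 in NSEB5-2C and 20.5 in Mixture. The 8 neural crest markers summed to 903.1 in NS21, 943.4 in NS195R, 3254 in NSEB5-2C and 2086 in Mixture, with 6, 6, 6 and 7 well above background. Sox10 and Tfap2b were not so in NS21, Foxd3 and Tfap2b in NS195R, or Foxd3 and Sox10 in NSEB5-2C. Single markers differed from the sum. Pax3 gave 130.1 in NS21, 16.4 in NS195R, 75.01 in NSEB5-2C and 1.94 (not well above background) in Mixture. It alone of the crest markers had the order of lines of Bmp4, Msx1 and Msx2. Snai2 (2264), Tfap2a, Tfap2b and Ets1 were highest in NSEB5-2C, Sox10 and Ngfr in NS195R, and Foxd3 in NS21. The 10 mesenchyme markers summed to 4094 in NS21, 11158 in NS195R, 15012 in NSEB5-2C and 64934 in Mixture, with 9, 10, 8 and 10 well above background. Of 6 tested astrocyte markers, 4, 6, 4 and 6 were well above background, with sums of 942.2 in NS21, 10763 in NS195R, 1086 in NSEB5-2C and 6023 in Mixture. Within these sums Aldh1l1 gave 5234 in Mixture, and Slc1a3 gave 5047 and S100b 4277 in NS195R. Of 5 tested pluripotent markers, 3, 2, 2 and 2 were well above background, with sums of 1012 in NS21, 1010 in NS195R, 4900 in NSEB5-2C and 3751 in Mixture. Pou5f1 (88.9) and Esrrb (484.4) were well above background in NS21 and in neither other line. The rest of the tested markers differed from this. Zfp42 (17.4) was so in NSEB5-2C alone, and Dppa3 (11.6) in NS195R alone. Klf4 gave 431.8 in NS21, 984.2 in NS195R, 4876 in NSEB5-2C and 3628 in Mixture. Of 6 neuron markers, 4, 5, 4 and 6 were well above background, with sums of 993.2 in NS21, 2715 in NS195R, 263.2 in NSEB5-2C and 849.0 in Mixture. Stmn2 gave 340.3 in NS21, 1.64 (not well above background) in NS195R, 33.9 in NSEB5-2C and 109.7 in Mixture. Tubb3 gave 546.9 in NS21, 59.9 in NS195R, 140.0 in NSEB5-2C and 418.1 in Mixture, so both had the order of lines of Bmp4. The remaining neuron markers, Dcx, Map2, Syt1 and Rbfox3, ran against these and were highest in NS195R. That line gave 117.2 for Dcx, 2177 for Map2, 319 for Syt1 and 40.5 for Rbfox3. Map2 was 81.8 and Syt1 18.0 in NS21, against 56.8 and 25.1 in NSEB5-2C. Dcx and Rbfox3 were not well above background in either of these lines. The part of cell makeup in the member values was not tested.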

How the data were processed

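Per the file headers, background-subtracted spot intensity and quality flags are the output of Agilent Feature Extraction 9.5.3.1. The deposited value table held the same intensity at 45018 of 45018 features (relative tolerance 1e-06). All 4 arrays lay on 1 slide and 1 scan. Processed signals were taken to log2 minus each array's 75th percentile. Flagged spots were left out, repeated spots averaged, and 19 probes dropped for a missing value. Current symbols came by transcript for 22951 probes, symbol for 6659 and synonym for 3105, and 8459 kept the file's name. For each gene the probe with the highest mean was used, and 19825 genes with a signal well above background somewhere were tested with limma 3.58.1 in R 4.3.3 (two-sided, Benjamini-Hochberg, adjusted p under 0.05), with 2 residual degrees of freedom for NPC lines against Mixture and 1 for the lines. Mixture, with 1 array, was taken to vary as the lines do. The fits were tested on simulated data. The number of arrays limits the precision.

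Members and lists were chosen with earlier results of these data known. Named were all members, pathway genes past limma, up to 4 genes a role with the widest range between lines, and the 3 genes nearest to Msx1. Promoters came from RefSeq. Protein sequences were not analysed here. A pathway gene that the rule names is not reported here, and counts include it. Alternatives changed background correction, scaling, filter, probe choice, variance prior, the size rule and the lines included.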

Additional observations from a re-analysis of the deposited data

Results flagged for a closer look

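Bmp2, Bmp4, Nog and Msx1 were singled out because at least 1 NPC line lay 1.5-fold or more above Mixture while another lay 1.5-fold or more below it. On the log2 scale the lines ranged over 5.99 for Msx1 and 5.27 for Bmp4, each NS21 over NS195R. The range was at least 3.23 for Bmp2, NS21 over NS195R, and at least 1.99 for Nog, NS21 over NSEB5-2C, where the low line was not well above background. With 1 array for each line, the gap between the highest and lowest line was not tested. Limma of each line against the other lines called 0 members (0% of all genes).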

How the results depend on the processing

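Members called by limma against Mixture or between lines numbered 0 under every alternative that was fitted. The ratio to Mixture kept its sign for Bmp7, Msx2, Id2, Id3 and Id4. Id4 lay between -3.02 and -1.52, with limma adjusted p between 0.0818 and 0.240. The size moved for Bmp7, between -5.67 and -1.40, where -5.67 (without NS21) uses the NSEB5-2C signal below background as read. No size is given for Msx2, whose Mixture signal was below background. The sign turned for the other members, and the causes were not tested. Leaving out 1 line gave between -0.93 and 1.15 for Bmp2 (-0.93 without NS21, -0.17 without NSEB5-2C), between -1.56 and 1.07 for Bmp4 (1.07 without NS195R), between -0.84 and 0.20 for Nog (0.20 without NSEB5-2C), between -0.29 and 2.71 for Msx1 (-0.29 without NS21) and between -0.12 and 0.94 for Id1 (-0.12 without NS21). Median scaling gave 0.59 for Bmp4 and 0.51 for Nog, normexp 0.16 for Bmp4 and 0.081 for Nog, and quantile normalization 0.64 for Nog. These settings move the median log2 ratio of all genes by 0.75, -0.22 and 0.12. With normexp, the log2 difference of NSEB5-2C from the other lines was -0.30 for Msx2.

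The 2 members past the size rule became 0 when all 3 lines had to pass, 1 among genes measured on all arrays and 5 with median scaling. The 7 members at least 2-fold above both others in NS21 became 3 among genes measured on all arrays, where fewer members remain. Members below both others in NS195R were 2 there and 2 with normexp, against 4. Members at least 2-fold above both others in NSEB5-2C were 1 with median scaling, and those below both in NS21 were 1 with the mean of probes, against 0 each.

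All genes called higher, 186, became 510 with dim values raised (chosen after seeing the data), 280 for single probes, 472 with an intensity trend, 524 without the filter, 973 with normexp, 586 with quantile normalization and 0 among genes measured on all arrays. The 1767 called lower became 0 there as well. Without any 1 line, 0 genes were called in either direction. The 3 pathway genes called became 5 with an intensity trend, 7 with normexp, 5 with quantile normalization, 0 among genes measured on all arrays and 0 without any 1 line. Of the other counts recomputed under alternatives, 116 stayed within 1.5-fold. Leaving out a line leaves no residual degrees of freedom between lines, so those contrasts were not run. No paired analysis was possible because the replicate numbers only name the lines and Mixture has 1 array. Bmp2 in NS195R, Bmp7 and Nog in NSEB5-2C, and Msx2 in NS195R and Mixture were below the detection limit and have only bounds.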
